A study of Mus musculus with 60 samples.

Results

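The ionotropic glutamate receptor subunits described here are 4 subunits of the AMPA receptor (Gria1, Gria2, Gria3 and Gria4) and 6 subunits of the NMDA receptor (Grin1, Grin2a, Grin2b, Grin2c, Grin2d and Grin3a). They were chosen by gene symbol and make up 10 of the 47574 gene entries used. Their RNA was measured by RNA-Seq in 60 libraries of C57BL-6N mice aged 3 months, labelled as cortex or striatum. By their labels they fall into 10 groups of 6, of which 3 are male and 3 female. Each tissue was taken from Δ12-line +/+, Δ12/+ and Δ12/Δ12 mice and from KO-line +/+ and KO/+ mice. The Δ12 allele is a knock-in made by CRISPR/Cas9 in embryonic stem cells, which shortens exon 12 of the huntingtin gene Htt and gives it a new splice donor. The KO allele came from a founder in which the intended repair failed and the splice donor of that exon was lost. Both alleles were carried in the germ line, so every cell type of an animal had them, and +/+ mice of the same line served as controls. The study asked whether the shortened huntingtin isoform leaves gene expression in the brain as it is in +/+ mice, with the KO/+ mice as the comparison for a lower huntingtin level.

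Ionotropic glutamate receptors are tetrameric cation channels opened by glutamate, the main excitatory transmitter of the brain. AMPA receptors carry most of the fast synaptic current, and the subunits they contain set their calcium permeability and kinetics. NMDA receptors need Grin1, which binds glycine or D-serine, together with glutamate-binding Grin2 subunits, and the Grin2 subunit sets the decay time and magnesium block of the channel. Projection neurons of the cortex release glutamate, while the spiny projection neurons of the striatum release GABA and receive glutamate from cortex and thalamus.

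The 4 AMPA receptor genes are close relatives, and the stretch that lines their pore is shown here because the channel's calcium permeability is set within it. The sequences are the coding strand of GENCODE release M21 transcripts on GRCm38, and the capitals mark the glutamine codon at the pore position known as the Q/R site.
Gria1: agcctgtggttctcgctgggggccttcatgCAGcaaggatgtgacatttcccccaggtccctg
Gria2: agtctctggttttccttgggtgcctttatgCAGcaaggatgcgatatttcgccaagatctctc
Gria3: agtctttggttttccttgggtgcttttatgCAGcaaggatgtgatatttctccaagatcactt
Gria4: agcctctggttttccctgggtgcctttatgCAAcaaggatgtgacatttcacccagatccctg
The codon lies at chr11:57243094-57243096 (plus strand, exon 11 of 16) in Gria1 and at chr3:80706911-80706913 (minus strand, exon 11 of 16) in Gria2. In Gria3 it lies at chrX:41610265-41610267 (plus strand, exon 11 of 16) and in Gria4 at chr9:4464137-4464139 (minus strand, exon 12 of 17). Of the 63 bases shown, Gria3 shared 57 with Gria2, Gria4 shared 54 and Gria1 shared 49. The genome encodes glutamine in all 4 genes. Gria2 RNA is known to be edited at this codon to arginine, which makes the channel nearly impermeable to calcium, and gene-level tables do not show whether a transcript was edited.

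The values are FPKM, which is the fragment count of a gene divided by its transcript length and by the total mapped in that library, and are called scaled FPKM after each library was divided by its own median-of-ratios factor. They are per length and can be compared between genes as levels. Gene positions are given on GRCm38 as in the tables. The scale factors lay between 0.756 and 1.37, and the depth estimated from the interval bounds in the tables lay between 12700000 and 27500000 fragments, with a median of 17000000. The tissue labels were checked against defining transcripts before any result was read. The vesicular glutamate transporter Slc17a7, carried by cortical excitatory neurons, divided the libraries at 100 FPKM into 30 cortex-like libraries, with 120.8 FPKM or more, and 30 striatum-like libraries, with 64.8 FPKM or less. Each set held 15 libraries labelled cortex and 15 labelled striatum, so 30 of 60 libraries matched their tissue label. All Δ12-line +/+ and Δ12/+ libraries and the male-labelled Δ12/Δ12 libraries were cortex-like in both labelled tissues. The female-labelled Δ12/Δ12 libraries and the whole KO line were striatum-like in both labelled tissues. Every cortex-like library was thus labelled with the Δ12 line, and only the female-labelled Δ12/Δ12 libraries put that line in the striatum-like set. Set and mouse line can therefore hardly be told apart when the sets are compared. The part of mouse line, or of any preparation by line, was not tested. The sex-linked transcripts also matched the labelled sex in 30 of 60 libraries. A further disagreement concerns female 3 of the KO/+ striatum group, whose title gives the Δ12 line where its genotype label gives the KO line. It was kept with the KO line.

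Other transcripts moved with this division. All 9 striatal projection neuron markers, among them Drd1, Drd2 and Adora2a, were higher in every striatum-like library, with a summed scaled FPKM of 1218 to 2387 against 112 to 617 in the cortex-like libraries. The 7 cortical markers summed to 11.6 to 93.2 against 125 to 237, with Slc17a7 and Emx1 free of overlap, while Cux2 had the higher median in the striatum-like set. Of the 3 cerebellar granule cell markers, Gabra6 and Fat2 were at or near 0 in both sets, and Neurod1 had a median of 1.84 in the cortex-like and 0.110 in the striatum-like set. Among 7 interneuron markers, Pvalb, Sst and Vip were higher in all cortex-like libraries, and Gad1 and Gad2 in all striatum-like libraries. The summed markers of the other lists, cortex-like first, were 373 to 833 and 481 to 623 for astrocytes, 252 to 518 and 651 to 1082 for oligodendrocytes (4 of 5 genes, Mbp not found), 5.29 to 13.2 and 13.1 to 19.1 for their precursors, and 18.2 to 35.1 and 37.7 to 52.4 for microglia. Thalamic markers summed to 3.95 to 13.6 and 3.92 to 101, and choroid plexus markers to 1.62 to 374 and 31.8 to 2086. Library composition moved with it as well. The 13 mitochondrial protein genes summed to 1864 to 5946 scaled FPKM in cortex-like and 10839 to 24213 in striatum-like libraries. The medians, cortex-like first, were 301 and 631 for Actb, 14.9 and 19.7 for Gapdh and 26.0 and 245 for Kif5a. Kif5a ranged from 21.9 to 100 and from 204 to 285. The summed small nucleolar and Cajal body RNAs (132 entries) had medians of 1017830 and 102331. The part of these differences in the results below was not tested. Since the sets are defined by a measured transcript, the levels in them are given as a description with no test.

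Of the 10 subunits, 7 had a higher median in the striatum-like set and 3 in the cortex-like set. The ranges of the sets did not overlap for 6 subunits, against 36.3% of the 16085 entries with a mean scaled FPKM of at least 0.5. Gria1, Gria3, Grin2b and Grin2c lay wholly higher in the striatum-like libraries, as did 19.6% of all entries, and Gria4 and Grin3a wholly higher in the cortex-like libraries, as did 16.7%. The log2 ratio of set medians, striatum-like over cortex-like, was taken with 0.5 scaled FPKM added to each. Its median was 0.78 over the AMPA receptor subunits and 0.76 over the NMDA receptor subunits, against 0.03 over all entries. Entries with transcripts as long as those of the subunits had higher medians, from 0.46 to 0.83 by length class, as described below. In bulk tissue, fewer cells of a type and less RNA per cell cannot be told apart.

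**Figure D1:**
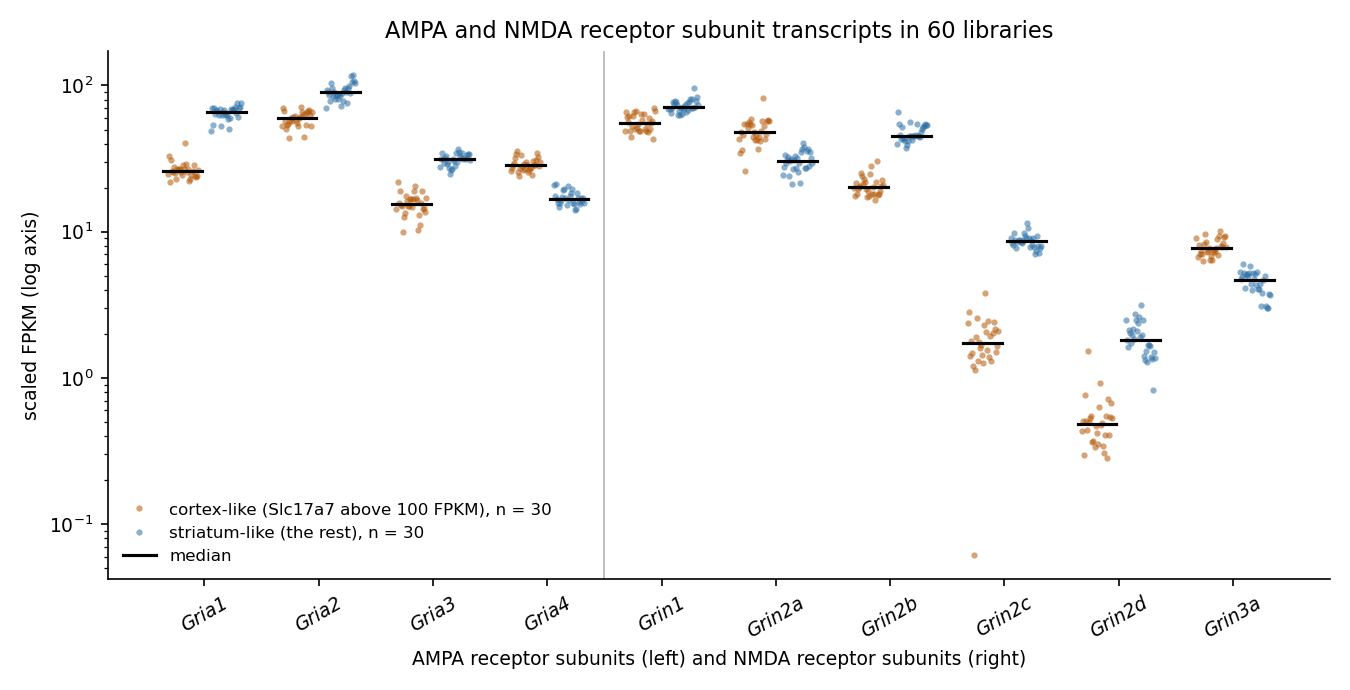
Scaled FPKM of the 10 subunits on a log axis, with a point for each library and a line at the median of each Slc17a7 set (30 cortex-like and 30 striatum-like libraries). Gria4, Grin2a and Grin3a have the higher median in the cortex-like set and the other 7 in the striatum-like set.

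Gria2 (ENSMUSG00000033981, chr3:80681450-80802835), the subunit whose editing closes AMPA receptors to calcium, was the most abundant of the 10 subunits in both sets. Its lowest, median and highest scaled FPKM were 43.4, 60.3 and 71.0 in the cortex-like libraries and 69.8, 89.6 and 118 in the striatum-like libraries. The ranges touched, and 29 of the 30 striatum-like libraries lay above every cortex-like library. Gria1 (ENSMUSG00000020524, chr11:57011387-57330244), which is needed for much of the synaptic insertion of AMPA receptors in long-term potentiation, had 21.7, 26.1 and 40.5 against 49.0, 66.2 and 76.2. Its median was 2.53-fold higher in the striatum-like set, the largest ratio among the AMPA receptor subunits. Gria3 (ENSMUSG00000001986, chrX:41400854-41678601), an X-linked subunit that commonly pairs with Gria2, had 9.97, 15.5 and 22.0 against 24.9, 31.3 and 36.9, a ratio of 2.02. Gria4 (ENSMUSG00000025892, chr9:4417899-4796234), the rapidly gated subunit prominent in several kinds of interneuron and in the thalamus, went the other way. Its lowest, median and highest values were 24.2, 28.4 and 35.8 in cortex-like and 14.1, 16.8 and 21.1 in striatum-like libraries, a 1.69-fold higher median in the cortex-like set.

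Grin1 (ENSMUSG00000026959, chr2:25291181-25319187), the subunit that every NMDA receptor contains, had the smallest ratio between the sets. Its lowest, median and highest scaled FPKM were 42.7, 55.0 and 70.6 in the cortex-like and 62.6, 71.4 and 96.0 in the striatum-like libraries, and 16 striatum-like libraries lay above all cortex-like ones. An antisense transcript overlaps Grin1, and whether the authors counted by strand is not given in the sources used here, so the level of Grin1 is uncertain to that extent. Grin2a (ENSMUSG00000059003, chr16:9567898-9995560), the subunit of rapidly decaying NMDA currents that increases as the forebrain matures, had 26.1, 48.1 and 81.7 in cortex-like and 21.3, 30.6 and 40.1 in striatum-like libraries. In the striatum-like range lay 4 cortex-like libraries, while 25 striatum-like libraries lay within the wider cortex-like range and 5 below it. The median was 1.57-fold higher in the cortex-like set. Grin2b (ENSMUSG00000030209, chr6:135713233-136173511), the subunit of slower currents that dominates in early development, had 16.5, 20.3 and 30.3 against 37.6, 45.4 and 65.4. Its ranges did not overlap, with a 2.24-fold higher median in the striatum-like set.

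The remaining NMDA receptor subunits were low. Grin2c (ENSMUSG00000020734, chr11:115249169-115267243), best known from cerebellar granule cells and also found in astrocytes and thalamus, had 0.0615, 1.72 and 3.79 scaled FPKM in cortex-like and 7.09, 8.60 and 11.5 in striatum-like libraries. This ratio of 5.00 was the largest of the 10 subunits. Of the cerebellar markers, Gabra6 and Fat2 were near 0, and Neurod1, with medians of 1.84 and 0.110, was higher in the cortex-like set. The summed astrocyte markers overlapped between the sets. The summed thalamic markers had medians of 6.65 in the cortex-like and 21.9 in the striatum-like libraries, with 0.857 and 14.3 for Prkcd and 0.30 and 3.62 for Tcf7l2, while Slc17a6 had 5.34 and 3.04. The part of thalamic RNA in the level of Grin2c was not tested. Grin2d (ENSMUSG00000002771, chr7:45832483-45866681), which forms receptors with very slow decay and is known in interneurons, had 0.282, 0.482 and 1.52 against 0.824, 1.83 and 3.17, and 22 striatum-like libraries lay above all cortex-like ones. Grin3a (ENSMUSG00000039579, chr4:49661611-49845744), a glycine-binding subunit that lowers the calcium permeability of NMDA receptors, had 6.31, 7.72 and 10.2 against 2.99, 4.70 and 5.99. It was the only NMDA receptor subunit wholly higher in the cortex-like libraries, by 1.64-fold at the median.

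The order of the levels differed between the sets. In the cortex-like set the medians ran from Gria2 through Grin1, Grin2a, Gria4, Gria1, Grin2b, Gria3, Grin3a and Grin2c to Grin2d. In the striatum-like set they ran from Gria2 through Grin1, Gria1, Grin2b, Gria3, Grin2a, Gria4, Grin2c and Grin3a to Grin2d. Some neighbours were not separated by the spread over libraries. In the cortex-like set, Gria2 exceeded Grin1 in 20 of 30 libraries and Grin1 exceeded Grin2a in 22. In the striatum-like set, Gria3 exceeded Grin2a in 16 of 30 libraries. The lower end was firm, with Grin3a above Grin2c in 30 of 30 cortex-like libraries and Grin2c above Grin3a in 30 of 30 striatum-like libraries. The spread over libraries was largest for the low subunits of the cortex-like set, with a coefficient of variation of 45.7% for Grin2d and 36.4% for Grin2c. Among the other values, Grin2d had 27.4% in the striatum-like set, and the remaining ones lay between 9.27% (Gria3, striatum-like) and 20.7% (Grin2a, cortex-like).

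A share within a library does not depend on how the library was scaled. Gria2 supplied nearly the same share of the AMPA receptor transcripts in both sets, with a median of 45.7% (range 40.6 to 50.1) in cortex-like and 44.1% (39.9 to 49.6) in striatum-like libraries. The rest of the AMPA receptor pool was divided differently. Gria4 made up 21.8% (17.5 to 27.9) of it in cortex-like and 8.19% (6.46 to 12.5) in striatum-like libraries, with no overlap. Gria1 made up 20.2% (16.4 to 27.7) and 32.1% (26.9 to 35.7), with 1 library of each set in the range of the other. Gria3 made up 12.0% (7.78 to 14.5) and 15.3% (12.9 to 17.9), with overlapping ranges.

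**Figure D2:**
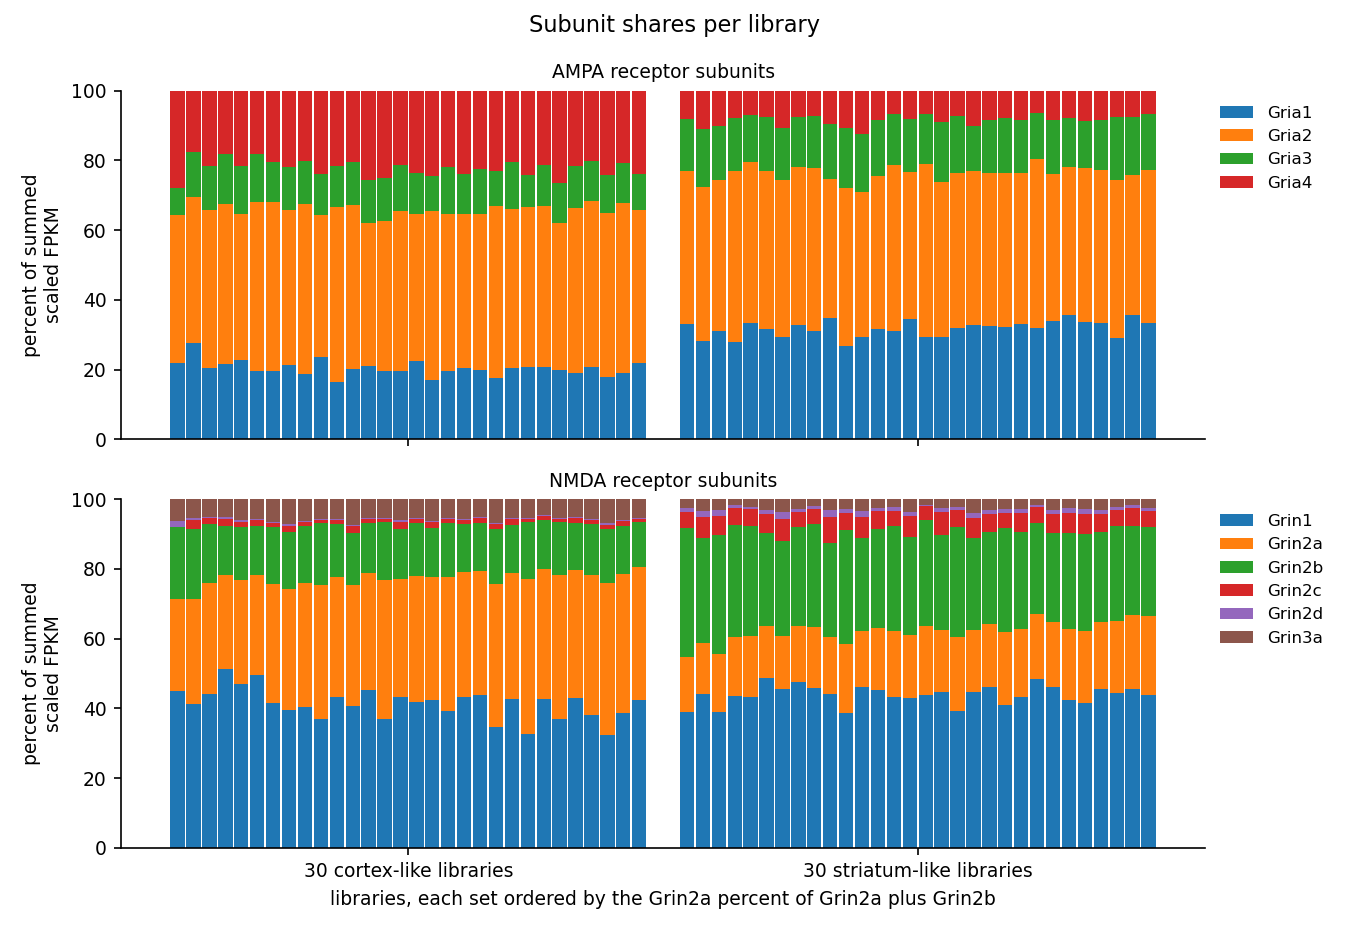
Stacked bars give each subunit as a percentage of the summed scaled FPKM of its receptor family, with a bar for each of the 30 cortex-like and 30 striatum-like libraries and AMPA receptor subunits above NMDA receptor subunits. Gria2 and Grin1 take similar shares in both sets, Gria4 and Grin2a larger shares in the cortex-like libraries, and Gria1 and Grin2b larger shares in the striatum-like libraries.

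Within the NMDA receptor transcripts, Grin1 supplied 42.1% (32.4 to 51.3) in cortex-like and 44.1% (38.5 to 48.8) in striatum-like libraries. The leading Grin2 subunit differed. Grin2a had a share of 35.7% (26.3 to 44.3) in cortex-like and 18.1% (14.5 to 22.7) in striatum-like libraries, while Grin2b had 15.1% (12.8 to 20.8) and 27.8% (25.6 to 36.9). Neither share overlapped. Grin2c had 1.26% (0.062 to 2.70) and 5.14% (3.99 to 7.29), and Grin3a had 5.68% (4.70 to 7.39) and 2.82% (1.57 to 3.90), both without overlap. Grin2d had 0.352% (0.212 to 1.54) and 1.11% (0.459 to 2.01), with overlap. The summed AMPA receptor subunits were 131 scaled FPKM (102 to 152) in cortex-like and 204 (167 to 239) in striatum-like libraries, and the summed NMDA receptor subunits 133 (99.2 to 184) and 166 (138 to 199). The AMPA to NMDA ratio was 0.971 (0.640 to 1.29) and 1.22 (1.08 to 1.41).

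The share of Grin2a in the sum of Grin2a and Grin2b, the pair that distinguishes most forebrain NMDA receptors, followed the Slc17a7 set and not the tissue label. It had a median of 70.5% (55.9 to 74.8) in the cortex-like and 39.2% (29.9 to 47.0) in the striatum-like libraries, without overlap. Outside the female-labelled Δ12/Δ12 libraries, set and mouse line moved together and cannot be told apart. In the KO line, the group medians were 41.2% for +/+ and 41.4% for KO/+ in the libraries labelled cortex, and 38.7% and 37.7% in those labelled striatum. In the Δ12 line they were 68.2% for +/+ and 70.7% for Δ12/+ labelled cortex, and 71.4% for each of these groups labelled striatum. The Δ12/Δ12 groups were split by labelled sex. The 3 male-labelled libraries had 70.4% to 74.5% when labelled cortex and 72.0% to 73.5% when labelled striatum, and the 3 female-labelled libraries had 29.9% to 38.1% and 38.4% to 41.8%.

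**Figure D3:**
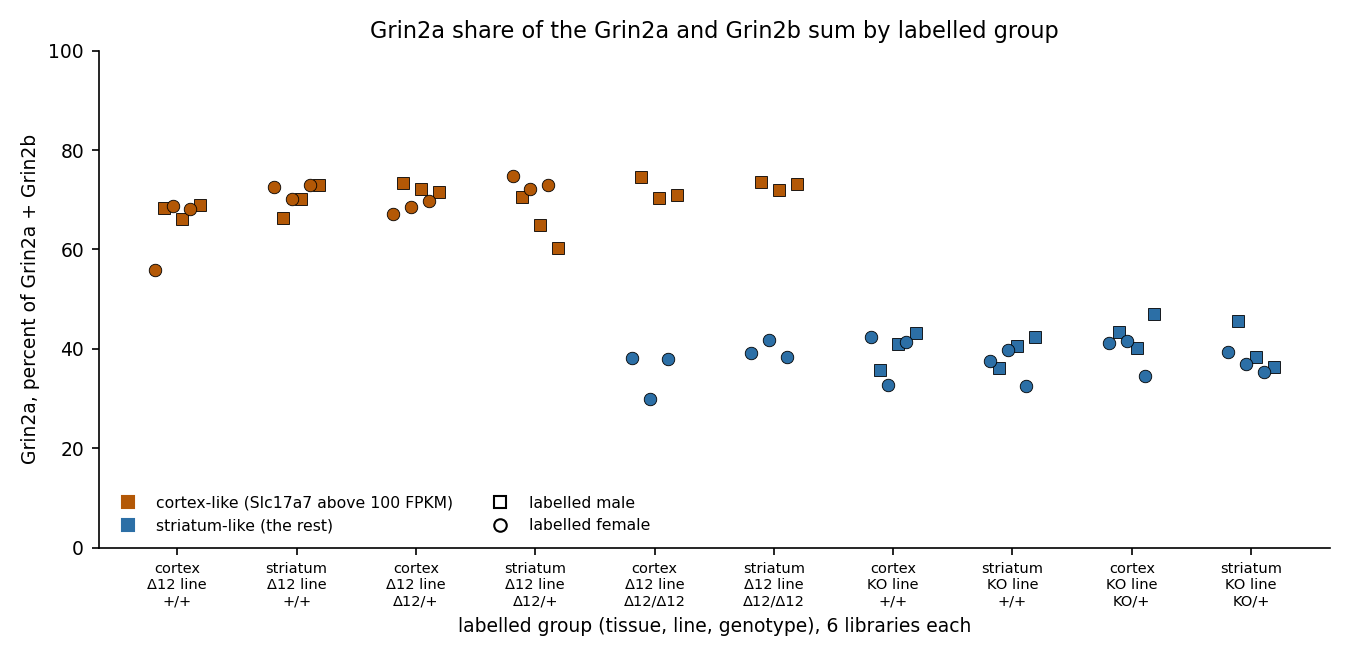
Grin2a as a percentage of Grin2a plus Grin2b in each of the 60 libraries, by labelled group, with the colour giving the Slc17a7 set and the shape the labelled sex. KO-line libraries of both tissue labels lie between 29.9% and 47.0% with the female-labelled Δ12/Δ12 libraries, and all other libraries lie at 55.9% or more.

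The scaling of the libraries moved all ratios but changed no direction among the 10 subunits. With the deposited FPKM the median log2 ratio of all entries was -0.19 and with quantile normalization 0.01, against 0.03 with the scaling used. For Grin1 the log2 ratio was 0.38, with 0.07 on the deposited values and 1.19 after quantile normalization, so the size of its difference rests on the scaling. For Grin2a it was -0.64, with -0.99 and -0.18, and for Grin2c 2.04, with 1.71 and 1.93. The 6 striatum-like libraries with a Slc17a7 level above 30 FPKM lay nearest to the limit. Without them, 7 subunits in place of 6 had ranges that did not overlap, and the number of shares without overlap stayed at 6 of 11.

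Transcript length also moved with the ratio of the sets. Taking the longest annotated transcript of each gene, longer genes had higher ratios across entries in the striatum-like set (Spearman rho 0.365), from a median log2 ratio of -0.82 for transcripts of 500 to 1000 nucleotides to 0.83 for those of at least 10000. The correlation with GC content was 0.05. Most subunits have long transcripts, so each was set against the median of its own length class. Grin2c lay 1.57 above its class, Gria1 0.86, Grin2d 0.78, Gria3 0.53 and Grin2b 0.31. Grin1 and Gria2 lay near their classes, with differences of -0.09 and -0.26. Gria4, Grin3a and Grin2a lay furthest from their classes in the other direction, with differences of -1.20, -1.40 and -1.47. Grin2a and Grin2b are both in the open-ended class of at least 10000 nucleotides, with 14634 and 24060, and had log2 ratios of -0.64 and 1.14. The part of transcript length in the ratios was not tested.

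**Figure D4:**
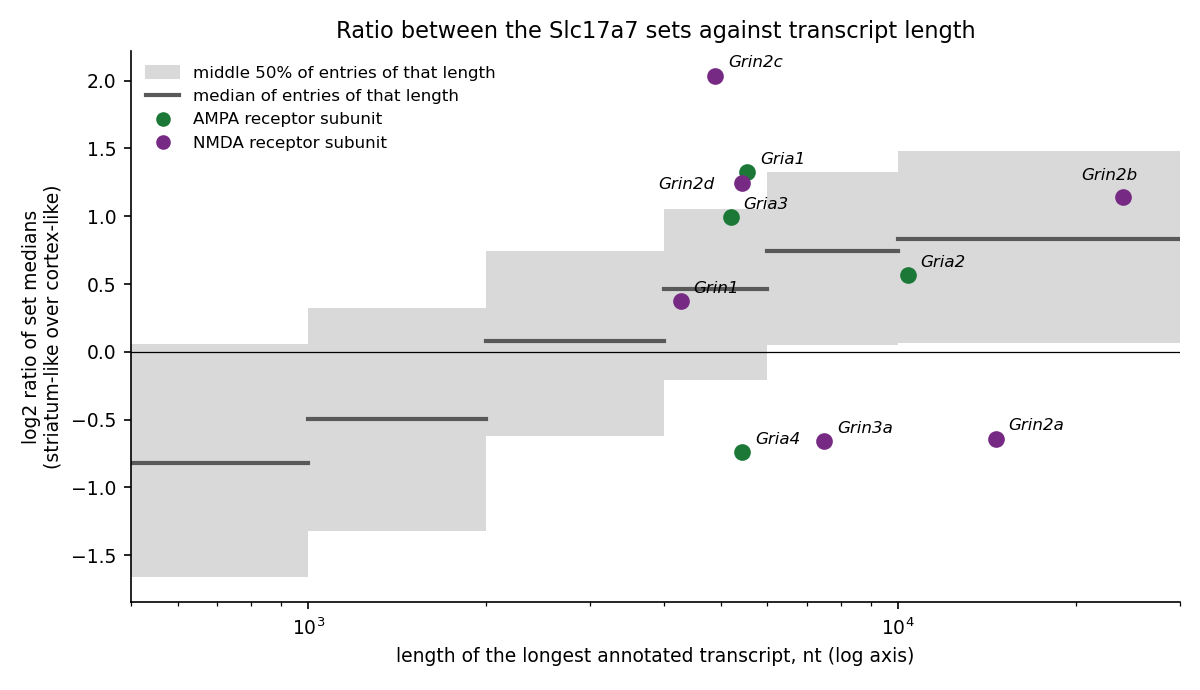
Log2 ratio of set medians (striatum-like over cortex-like) against transcript length in nucleotides on a log axis, with the 10 subunits as points, a line at the median of all entries in each length class and shading over the middle 50% of them. The class medians rise from -0.82 to 0.83, Grin2c and Gria1 lie above them, and Gria4, Grin3a and Grin2a lie below.

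Promoter sequences are shown for Grin2c and Gria4, which had the largest ratios in opposite directions among the subunits in the promoter table. RefSeq sequences of 300 bases across the transcription start were matched for 5 of the 10 subunits (Grin1, Gria2, Grin2d, Gria4 and Grin2c) on GRCm38.p6. Capitals mark GGGCGG, the core of the GC box, searched on both strands with overlaps counted.
Grin2c, chr11:115267194-115267493, minus strand: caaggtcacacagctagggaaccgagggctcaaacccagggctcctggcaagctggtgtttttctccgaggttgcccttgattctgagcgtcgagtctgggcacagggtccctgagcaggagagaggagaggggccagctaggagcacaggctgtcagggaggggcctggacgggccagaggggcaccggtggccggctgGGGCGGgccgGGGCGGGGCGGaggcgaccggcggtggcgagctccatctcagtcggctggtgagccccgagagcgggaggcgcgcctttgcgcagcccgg
Gria4, chr9:4796185-4796484, minus strand: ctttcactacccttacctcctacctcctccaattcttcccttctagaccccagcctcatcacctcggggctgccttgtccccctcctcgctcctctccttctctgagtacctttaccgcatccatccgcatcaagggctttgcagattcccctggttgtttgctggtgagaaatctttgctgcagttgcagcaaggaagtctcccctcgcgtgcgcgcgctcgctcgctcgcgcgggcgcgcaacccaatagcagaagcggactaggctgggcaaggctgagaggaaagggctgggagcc
The Grin2c promoter had a GC content of 70% and 3 matches, of which a pair overlaps. The Gria4 promoter had 59.7% and no match. The median over all 32851 promoters was 52.7%, and 35.7% of them held the motif. Grin1 held 1 match of GGGCGG and 2 of CACGTG, a motif found in 7.15% of promoters. TGACGTCA (1.79% of promoters) and TATAAA (13.6%) were found in none of the 5. These matches describe the letters of the window and not a bound factor.

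Genes that act with these subunits were described in the same way. All 7 kainate and delta receptor subunits passed the filter on low values, with a median log2 ratio of 1.06, against 0.03 over all entries. Of them 5 were wholly higher in the striatum-like libraries, as were 19.6% of all entries. In the cortex-like libraries 1 was wholly higher, as were 16.7% of all entries. Grin3b, an NMDA receptor subunit kept on the same list, was at or near 0 and did not pass. The kainate receptor subunit Grik3 had medians of 2.10 scaled FPKM in cortex-like and 11.3 in striatum-like libraries, Grik5 10.7 and 38.8, and Grik1 5.04 and 1.28, all without overlap. Grik4, with 1.91 and 2.69, overlapped. The kainate receptor auxiliary subunits Neto1 (5.89 and 26.6) and Neto2 (11.1 and 22.7) were both wholly higher in the striatum-like set.

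The auxiliary subunits of AMPA receptors set their trafficking and gating. All 12 passed the filter, 4 were wholly higher in the striatum-like and 1 in the cortex-like libraries, and the median log2 ratio was 0.99. Over all entries the shares were 19.6% and 16.7%, and the median log2 ratio was 0.03. Cacng4 had the highest ratio, with medians of 1.49 and 27.5 scaled FPKM, followed by Shisa7 with 3.00 and 26.6. Cnih3 had the lowest, with 35.0 in the cortex-like and 4.89 in the striatum-like set, and Cacng5 the next, with 2.78 and 2.11. Among 21 scaffold and trafficking genes of the postsynaptic density, 8 were wholly higher in the striatum-like and 1 in the cortex-like libraries. Their median log2 ratio was 1.09, beside the same values over all entries. The scaffold genes Dlgap3, known for its striatal expression, and Shank3 had 8.56 and 124 and 5.69 and 57.4. Dlgap1 had 82.6 and 36.5, and Homer1 had 130 and 75.7 with overlapping ranges.

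Genotypes were compared within a line and labelled tissue with limma on log2(scaled FPKM + 0.5), fitted over all entries with a covariate for labelled sex, and p-values were adjusted by the Benjamini-Hochberg method. Fold changes on this scale understate the change of low genes. Htt was read first. In the KO line its lowest, median and highest scaled FPKM in the libraries labelled striatum were 16.9, 17.6 and 20.7 in +/+ and 12.7, 16.9 and 19.9 in KO/+, and in those labelled cortex 16.6, 17.5 and 20.4 against 13.9, 17.3 and 20.1. In each labelled tissue, 3 of the 6 libraries labelled KO/+ lay below every +/+ library and 3 lay within the +/+ range. In those labelled striatum, male 2, female 1 and female 3 had 13.9, 15.5 and 12.7, and male 1, male 3 and female 2 had 19.9, 18.4 and 18.4. In those labelled cortex, male 1, male 2 and female 2 had 15.9, 15.6 and 13.9, and male 3, female 1 and female 3 had 18.8, 18.7 and 20.1. Htt therefore does not bear out the KO/+ label of 3 libraries in each labelled tissue, and no library was moved for it. How far the KO allele lowers Htt RNA is not given in the sources used here. A value within the +/+ range thus does not settle the genotype of a library. In the Δ12 line it ranged from 4.85 to 18.9, and a shortening within exon 12 leaves little mark on a gene-level value. The study states that littermates were compared, with 3 animals of each sex per group. The labels name no litter, so litter is not part of the fits. The p-values measure the spread between libraries within the labelled groups compared.

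In the KO line, 5 of 10 subunits differed between the libraries labelled KO/+ and +/+ under the striatum label, where 8.17% of 15822 entries did. Of the subunits 3 were higher and 2 lower in KO/+, against 706 (4.46%) and 587 (3.71%) of the entries. These libraries are all striatum-like. The directions are those of the genotype labels, which Htt does not bear out for KO/+ male 1, male 3 and female 2. Grin2b rose from 37.6, 42.3 and 44.9 scaled FPKM (lowest, median and highest of 6) in +/+ to 44.1, 51.0 and 54.6 in KO/+. Of the 6 KO/+ libraries 5 lay above all +/+ libraries, with a log2 fold change of 0.25 (SE 0.040, limma adjusted p = 0.0045). Gria1 rose from 50.6, 61.0 and 65.8 to 68.0, 70.5 and 75.7, without overlap, by 0.27 (SE 0.066, adjusted p = 0.030). Grin1 rose from 62.6, 66.2 and 73.6 to 70.0, 79.5 and 83.4, with 5 of 6 KO/+ libraries above all +/+ libraries, by 0.22 (SE 0.051, adjusted p = 0.024). The low subunits went the other way. Grin2d fell from 1.96, 2.50 and 3.17 to 0.824, 1.44 and 1.69, without overlap, with a log2 fold change of -0.67 (SE 0.14, adjusted p = 0.013). Grin3a fell from 4.30, 5.20 and 5.84 to 2.99, 3.70 and 4.67, with 5 of 6 KO/+ libraries below all +/+ libraries and a log2 fold change of -0.42 (SE 0.10, adjusted p = 0.028). Ranges without overlap, as for Gria1 and Grin2d, were found in 4.66% of entries. Gria3 was nearest to the threshold among the others, with 0.20 (SE 0.064, adjusted p = 0.075).

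**Figure D5:**
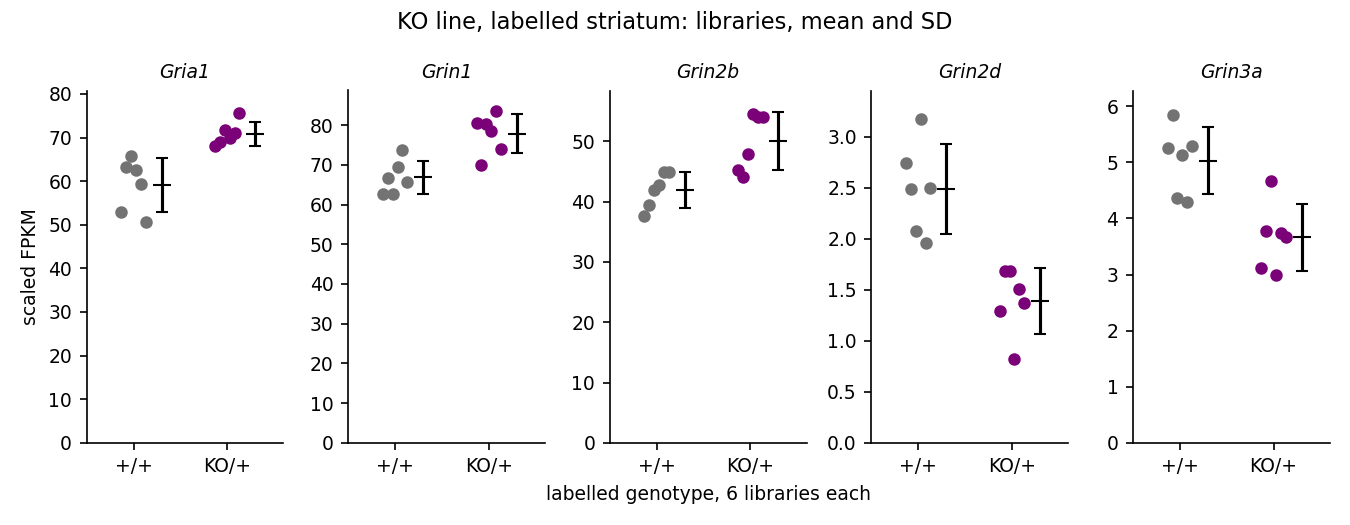
Scaled FPKM of the 5 subunits called in the KO-line libraries labelled striatum, with a point for each of the 6 libraries per labelled genotype and the mean with bars of 1 SD beside them. Gria1 and Grin2d do not overlap between the genotypes, with Gria1 higher and Grin2d lower in KO/+.

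Markers of cell types differed between the same groups, and their part in the subunits' differences was not tested. All 9 striatal projection neuron markers were higher in KO/+, with summed levels of 1220 to 1636 in +/+ and 1725 to 2214 in KO/+. All 3 thalamic markers were lower, with 41.1 to 67.4 in +/+ and 6.14 to 14.9 in KO/+, and so were all 4 oligodendrocyte markers tested, with 897 to 1082 and 740 to 835. Of the cortical markers 1 of 6 was higher, of the interneuron markers 1 of 7 was higher and 1 lower, and of the astrocyte markers 1 of 6 was lower. No marker of oligodendrocyte precursors, microglia or choroid plexus passed the test. Among the genes that act with the subunits, 10 of 21 scaffold genes were higher and 1 lower, 3 of 12 AMPA receptor auxiliary subunits were higher and 2 lower, 1 of 7 kainate and delta subunits was higher and 1 lower, and 1 of the 2 Neto genes was higher.

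The calls of Grin2b and Grin2d held with each of the 12 libraries left out in turn. The count of subunits called then lay between 2 and 6. Grin1 was lost without +/+ male 1, +/+ female 3, KO/+ male 3 or KO/+ female 2, with adjusted p between 0.053 and 0.063. Gria1 was lost without +/+ male 1 or female 3 or KO/+ male 3, female 1, female 2 or female 3, with adjusted p between 0.055 and 0.070, the last of these being the library whose title names the other line. Grin3a was lost without +/+ male 1, male 2, female 1 or female 3 or KO/+ male 1 or female 1, with adjusted p between 0.051 and 0.068, and Gria3 was gained without +/+ female 2 (adjusted p = 0.016). On the deposited FPKM only Grin2d was called, in a fit with 27 entries higher and 321 lower in place of 706 and 587. After quantile normalization, where 523 entries were higher and 684 lower, Grin2b, Grin2d and Grin3a were called.

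In the KO-line libraries labelled cortex, which are striatum-like too and where Htt does not bear out the KO/+ label of male 3, female 1 and female 3, no subunit was called by limma, and 18 entries or 0.114% of 15835 were, with 2245 entries at an unadjusted p under 0.05. Grin2d came nearest, with a median of 2.07 in +/+ and 1.40 in KO/+ and no overlap, which 1.4% of entries showed. Its log2 fold change was -0.44 (SE 0.087, adjusted p = 0.081). On the deposited FPKM, Grin2d (-0.55) and Gria4 (-0.28) were called. With the libraries of both tissue labels in a joint fit, 7 subunits were called, where 9.95% of 15932 entries were, with log2 fold changes of -0.55 for Grin2d, -0.35 for Grin3a, -0.19 for Grin2c, 0.26 for Grin2a, 0.22 for Gria2, 0.19 for Grin2b and 0.18 for Gria3. By their labels the 24 libraries of this fit come from 12 mice, each giving both tissues. The labelled mouse as a random effect was added after the data were seen. With it the same 7 subunits were called, with limma adjusted p up to 0.030, where 9.52% of entries were. The consensus correlation within a labelled mouse was 0.017. In +/+ male 1, female-specific Xist was 0.0415 FPKM labelled cortex and 30.7 labelled striatum, and male-specific Ddx3y 7.64 and 0.0148. These transcripts also differed between the labelled tissues of +/+ male 3 and female 3 and KO/+ male 3 and female 1. The labels therefore do not pair all libraries by animal, and this fit cannot settle the effect of shared animals. No entry had a genotype effect that differed between the labelled tissues at an adjusted p under 0.05 in limma, while 1831 had an unadjusted p under 0.05.

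In the Δ12 line, the Δ12/Δ12 groups held 3 male-labelled cortex-like and 3 female-labelled striatum-like libraries, while all +/+ libraries were cortex-like. Genotype and Slc17a7 set therefore cannot be told apart in the female-labelled libraries. In the libraries labelled striatum, 5 subunits were called, where 28.7% of 15470 entries were. Grin2c was higher in Δ12/Δ12 by 1.08 on the log2 scale (SE 0.31, limma adjusted p = 0.035), Grin2d by 0.72 (SE 0.24, adjusted p = 0.048), Grin2b by 0.61 (SE 0.16, adjusted p = 0.033) and Gria2 by 0.37 (SE 0.12, adjusted p = 0.046). Gria4 fell by 0.48 (SE 0.15, adjusted p = 0.043). Gria1 was next, with 0.59 (SE 0.24, adjusted p = 0.073). With the Slc17a7 set as a further covariate, no subunit and 22 entries were called, and without the sex covariate no subunit and 9 entries. Leaving out any of the 6 female-labelled libraries, of either genotype, gave 5 to 31 entries and no subunit. The genotype effect differed between the labelled sexes for 9 of 10 subunits, all but Grin1, where it did for 56.0% of entries.

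The same subunits were read within each set. Grin2c in libraries labelled striatum was 1.21 to 2.58 scaled FPKM in +/+, 1.51 to 2.09 in the male-labelled and 7.74 to 9.76 in the female-labelled Δ12/Δ12 libraries. Gria4 was 27.2 to 33.9 in +/+, 28.2 to 32.4 in the male-labelled and 14.6 to 16.7 in the female-labelled Δ12/Δ12 libraries. Grin2b was 18.2 to 23.1 in +/+, 20.6 to 22.6 in the male-labelled and 42.8 to 52.0 in the female-labelled ones. Grin2d was 0.362 to 0.758 in +/+, 0.530 to 0.676 in the male-labelled and 1.73 to 2.12 in the female-labelled ones. For Grin2c, Gria4, Grin2b and Grin2d, the male-labelled libraries lay within the +/+ range and the female-labelled libraries outside it. Gria2 was 50.7 to 60.4 in +/+ and 78.9 to 104 in the female-labelled libraries, and the male-labelled ones had 52.5, 62.5 and 66.0, so 2 of these 3 lay above the +/+ range as well. In the libraries labelled cortex, no subunit was called among 126 entries, or 0.802% of 15703. Grin2c had the smallest p, with 1.42 (SE 0.51, adjusted p = 0.078) and values of 2.02 to 2.41 in male-labelled and 8.12 to 9.12 in female-labelled Δ12/Δ12 libraries. The effect differed between the labelled sexes for 6 subunits (Gria1, Gria3, Gria4, Grin2b, Grin2c and Grin3a), where it did for 44.2% of entries.

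The Δ12/+ and +/+ libraries were all cortex-like. In those labelled striatum, no subunit and 1 entry of 15077 (0.00663%) was called. Gria3 had the smallest p of the subunits, with medians of 15.8 in +/+ and 13.9 in Δ12/+ and a log2 fold change of -0.23 (SE 0.12, limma adjusted p = 1.00). In those labelled cortex, no subunit and 8 entries of 15090 (0.053%) were called. Grin2b had the smallest p, with medians of 21.2 in +/+ and 18.6 in Δ12/+ and a log2 fold change of -0.19 (SE 0.091, adjusted p = 0.60). The subunit differences between these genotypes did not exceed the spread between libraries at this group size.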

How the data were processed

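RNA of cortex and striatum of mice aged 3 months was extracted with RNeasy columns, depleted of ribosomal RNA, made into stranded NEBNext libraries and sequenced on a NovaSeq6000, per the labels. The authors deposited 1 table of 47597 gene entries per library, in the layout of Cufflinks, with FPKM and interval bounds and no counts. The submitters' processing notes name bcl2fastq 2.20, Trimmomatic 0.30, TopHat2 2.0.14, SAMtools 1.3, HTSeq 0.6.1p1 and the build GRCm38.p4. FPKM depends on the annotated transcript length and on all other RNA in the library, and the strand setting of the counting is not given in the sources used here.

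Left out were 23 entries that were not marked OK in every library. Each library was divided by the median ratio of its 12351 entries with a mean FPKM of at least 1 to their geometric means, since a few small RNAs hold a large part of the summed FPKM. The entries were fitted with limma 3.58.1 (trend) in R 4.3.3 on log2(scaled FPKM + 0.5), among entries with a mean of at least 0.5 in the fit, with labelled sex as a covariate. Benjamini-Hochberg adjustment ran over all entries tested, and an adjusted p under 0.05 was called. The model behind the study's comparison of genes is not given in the sources used here, beyond its Benjamini-Hochberg adjustment. The script was tested on simulated data. Differences of effects between labelled sexes or tissues were tested as interaction terms. Depth was estimated from the bounds of single-transcript genes of at least 2000 nucleotides with at least 20 fragments. At such depth a level near 1 FPKM rests on few fragments, so Grin2c and Grin2d in cortex-like libraries are the least precise values.

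Groups follow the labels, and no library was moved on account of its values. No pair of libraries held identical values. Same-numbered libraries of the groups compared did not deviate together (correlations between -0.21 and 0.09), so the numbers were not used to pair them. Tissue and sex transcripts often differed from the labels, so this does not settle whether libraries share a litter. The division by Slc17a7 uses a measured transcript and received no test. The subunits, the gene lists and the division were chosen with earlier results of these data known. All 10 subunits are named in the description by set. In a comparison the called subunits are named and, of the rest, the one with the smallest p. Of each other list, at most 4 genes with the highest and lowest ratios are named, beside the markers. The alternatives were other scalings, pseudocount, filter and covariates, a block, a joint fit, each library left out and, added after the data were seen, a fit without libraries of Slc17a7 above 30 FPKM and a joint fit with the labelled mouse as a random effect.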

Additional observations from a re-analysis of the deposited data

Results flagged for a closer look

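The effect of Δ12/Δ12 against +/+ differed between the labelled sexes for most subunits, as did those of 56.0% of all entries under the striatum label and 44.2% under the cortex label (interaction term in limma, adjusted p under 0.05). The male-labelled Δ12/Δ12 libraries are cortex-like and the female-labelled ones striatum-like, so labelled sex and Slc17a7 set cannot be told apart here. Under the striatum label, male 1, male 2 and male 3 of Δ12/Δ12 had Xist at 24.1, 14.0 and 24.5 FPKM and Ddx3y at 0. Female 1 had Xist at 40.3, while female 2 and female 3 had Ddx3y at 6.36 and 6.44. Labelled sex is therefore not the sex shown by RNA in several of these libraries. Male minus female log2 differences in the libraries labelled striatum were -1.81 for Grin2c, -1.47 for Gria1, -1.38 for Grin2d, -1.03 for Gria3, -0.92 for Grin2b and -0.43 for Gria2, and 0.82 for Gria4, 0.84 for Grin3a and 1.22 for Grin2a. Grin1 was the subunit not called. In the libraries labelled cortex they were -2.75 for Grin2c, -1.42 for Gria3, -1.26 for Grin2b and -1.15 for Gria1, and 0.65 for Grin3a and 0.69 for Gria4. On the deposited FPKM the counts were 8 and 6 in place of 9 and 6.

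A library stood far from the other 5 of its labelled group in 10 of 100 sets of values (10 subunits in 10 groups), where chance gives about 1 in 20. Gria1 was 31.0 scaled FPKM in striatum Δ12-line +/+ male 1 (others 25.5 to 27.0) and 40.5 in striatum Δ12/+ male 3 (others 22.3 to 28.4). Gria3 was 20.6 in cortex Δ12/+ female 1 (others 14.9 to 17.0), a library in which Grin1 was also apart at 64.2 (others 49.0 to 54.6). Grin1 was 96.0 in cortex KO/+ female 2 (others 68.1 to 77.3) and 42.7 in striatum Δ12/Δ12 male 1 (others 66.5 to 76.9). Grin2a was 81.7 in striatum Δ12/+ female 3 (others 42.2 to 56.9), and Grin2b was 56.4 in cortex KO-line +/+ female 2 (others 41.6 to 45.5). Grin3a was 8.47 in striatum Δ12-line +/+ female 1 (others 7.02 to 7.43), and Grin2d was 1.52 in cortex Δ12-line +/+ female 1 (others 0.298 to 0.535). The latter library also set other limits of the cortex-like ranges. It held the lowest Grin2c (0.0615), Gria3 (9.97), Grin2a (26.1) and Grin3a (6.31) and the highest Gria4 (35.8). Its NMDA receptor sum (99.2) and its share of Grin2a in Grin2a plus Grin2b (55.9%) were the lowest of the cortex-like set.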

How the results depend on the processing

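Of 109 alternative values of the counts, 70 stayed equal or within 1.5 times and 39 did not. The cause was not tested. For KO/+ in libraries labelled striatum (1293 entries, 5 subunits), the deposited FPKM gave 348 entries and 1 subunit, quantile normalization 3 subunits, no filter 3 subunits, and the fit without libraries of Slc17a7 above 30 FPKM 3 subunits. For KO/+ labelled cortex (18 entries, 0 subunits), the deposited FPKM gave 147 and 2, no sex covariate 34 entries, the joint fit of both tissues 1586 entries (667 higher, 919 lower) and 7 subunits, and that fit with the labelled mouse as a random effect 1516 entries and 7 subunits. For Δ12/Δ12 labelled striatum (4433 entries, 5 subunits), no filter gave 1375 and 0, no sex covariate 9 and 0, the Slc17a7 set as a covariate 22 and 0, the deposited FPKM 2 subunits and quantile normalization 3 subunits. For Δ12/Δ12 labelled cortex (126 entries), the deposited FPKM gave 75, no filter 25, no sex covariate 7 and the set covariate 10. For Δ12/+ labelled striatum (1 entry), no sex covariate gave 2 and the joint fit, with or without the mouse, 0. For Δ12/+ labelled cortex (8 entries), the deposited FPKM gave 5, quantile normalization 54 and the joint fit, with or without the mouse, 0. The replicate block used numbers that showed no pairing of the samples. It gave 704 entries and 1 subunit (Grin2b) for KO/+ labelled striatum and 2 entries for KO/+ labelled cortex. For Δ12/Δ12 it gave 5 entries and 0 subunits labelled striatum and 6 entries labelled cortex. For Δ12/+ it gave 0 entries labelled striatum and 1 entry labelled cortex.

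With each library left out, the counts ranged from 781 to 1459 entries and 2 to 6 subunits for KO/+ labelled striatum, with 781, 787, 820 and 857 entries without KO/+ female 2, +/+ male 1, +/+ female 3 and +/+ female 1. They ranged from 5 (without +/+ male 2) to 29 (without KO/+ female 3) entries for KO/+ labelled cortex. For Δ12/Δ12 labelled striatum they ranged from 5 to 6373 entries and 0 to 7 subunits, with 5 to 31 entries and 0 subunits when a female-labelled library of either genotype was the one left out. For Δ12/Δ12 labelled cortex they ranged from 12 to 4032 entries and 0 to 3 subunits, the highest without +/+ male 2. For Δ12/+ they ranged from 1 to 2 entries labelled striatum and from 4 to 17 entries labelled cortex. A reversed direction was found for Gria1 in Δ12/Δ12 labelled striatum with the set covariate (-0.15, limma adjusted p = 0.50) and for Gria3 in Δ12/+ labelled striatum in the joint fit (0.011, adjusted p = 0.99, and 0.98 with the mouse), neither of which was called. The 158 alternative values of named subunits include their log2 ratios of set medians, which carry no test. Of the 158, 92 stayed the same, which means direction and side of the threshold for a test. For a ratio it means a shift smaller than the spread over libraries. A further 43 lost the call, 5 gained it and 3 reversed direction, and 15 ratios of set medians moved by more than the spread.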

Other observations

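Apart from the division by Slc17a7, each subunit varied from library to library together with other genes. For each subunit, the most similar entries were sought by Pearson's r of log2(scaled FPKM + 0.5) over 60 libraries after the mean of each Slc17a7 set was subtracted, among 8970 entries with a mean scaled FPKM of at least 5. These values are a description, since the libraries share preparation, depth and labelled groups. Gria2 had the highest, with r = 0.84 for Osbpl8 and 0.82 for Syt4, a synaptotagmin. Gria1 was nearest to Ngef and Sipa1l1 (both 0.74), and Gria4 to Klhl4 and Vamp7 (0.65 and 0.62). Gria3 was nearest to Rock2 and Slitrk2 (0.74 and 0.72), where Slitrk2 had 0.85 among the cortex-like and 0.22 among the striatum-like libraries. Grin1 was nearest to Cyfip2, a regulator of actin assembly, and Sfxn3 (0.78 and 0.72), Grin2a to Dtnb and Hace1 (0.75 and 0.71), and Grin2b to Unc79 and Nbea (both 0.69). Grin2c was nearest to Smarcc2 and Rassf2 (both 0.81). Among the cortex-like libraries both had 0.85, and among the striatum-like libraries Smarcc2 had 0.31 and Rassf2 0.36. Grin2d was nearest to Camk2n2 and Sema6d (0.70 and 0.69), and Grin3a to Wdr6 and Mast1 (0.72 and 0.71). Camk2n2, Wdr6 and Mast1 had 0.41, 0.45 and 0.40 among the cortex-like and 0.87, 0.88 and 0.84 among the striatum-like libraries.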
